A study of Homo sapiens with 30 samples.

Results

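The 8 genes followed here are regulators of red blood cell gene expression: GATA1, TAL1, LYL1, KLF1, NFE2, GFI1B, LMO2 and ZFPM1. They were read in the peak lists of a CUT&Tag series in K562 cells. They were chosen by symbol, and every peak within 10 kb of the hg19 start of each gene was taken. This gave 508 of the 745005 peaks that the 36 lists hold on chromosomes 1 to 22 and X. A promoter peak overlapped the 2 kb on either side of the start by at least 1 bp. A flank peak lay between 2 and 10 kb from it.

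K562 is an established human line from a chronic myeloid leukaemia that carries features of early red blood cells. In CUT&Tag, a transposase tethered to an antibody on chromatin inserts sequencing adapters close to the mark. The 30 libraries were each a condition of their own, so no value below has a replicate error.

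The groups were set by antibody, TSA, DNA extraction and PCR cycle number. TSA (trichostatin A) is an inhibitor of histone deacetylases. H3K27ac, an acetylation found at active promoters and enhancers, was profiled with Abcam ab177178, Abcam ab4729 and Active Motif 39133 at 1/100, and with Diagenode C15410196 at 1/50 and 1/100. At 15 cycles with SDS extraction there were 5 untreated H3K27ac libraries, and 4 with TSA (all but Active Motif). At 11 and 13 cycles there were 16 untreated H3K27ac libraries, from 4 antibodies (Diagenode at 1/50) with SDS or column extraction, called after downsampling to the same depth. H3K27me3, the methylation laid down by Polycomb repressors, was profiled without TSA with CST9733 at 1/100 in 5 libraries, namely SDS at 15 cycles and SDS or column at 11 and 13 cycles. The 30 SEACR lists are used throughout, and the 6 MACS2 lists of the untreated 15-cycle libraries where named.

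These regulators act as a network in red cell precursors. GATA1 binds GATA motifs with its cofactor ZFPM1 (FOG1), and TAL1 or the related LYL1 binds E-boxes beside it, bridged to GATA1 by LMO2. KLF1 binds CACCC motifs and switches on adult globin and other red cell genes, NFE2 drives globin genes from their distant enhancers, and GFI1B represses genes together with a histone demethylase complex.

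The lists differed in size. H3K27ac lists held 3024 to 22808 peaks at 15 cycles and 3761 to 10768 peaks after downsampling, and H3K27me3 lists held 65283 to 106997. The smallest was the Active Motif list at 15 cycles. For read depth, the sources used here give no value. CDKN2A, which is deleted in K562, had a peak in 0 of 30 lists. Of 758778 genome windows of 4 kb, only 47630 had a peak in any H3K27ac list, so a count of 0 does not by itself show the deletion. No hg19 annotation was used, so flank peaks are given by distance and not assigned to a gene.

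The promoter letters of these genes are shown because several of the 8 proteins read motifs that can stand in the promoters of the others. RefSeq promoter entries (GRCh38.p14, 250 bases before to 50 after a start, matched by symbol and not by hg19 position) were found for 6 of the 8 members, with 8 entries in all. NFE2 and LMO2 had no entry. Capitals mark matches on either strand to the GATA motif, spelled AGATAA in the first form, TGATAA in the second, AGATAG in the third and TGATAG in the fourth, or to the KLF type motif (CCNCNCCC). KLF type matches can overlap each other. The 5 members shown are those with an entry other than GFI1B, which has 2 entries far apart, neither matched to the hg19 start. Of the 2 TAL1 entries, the one shown was picked because it holds matches, and the other has 0 matches to any motif searched. Which TAL1 entry matches the hg19 start was not determined, so the matches shown may belong to another start than the one used for peaks.
GATA1, chrX:48786340-48786639, plus strand: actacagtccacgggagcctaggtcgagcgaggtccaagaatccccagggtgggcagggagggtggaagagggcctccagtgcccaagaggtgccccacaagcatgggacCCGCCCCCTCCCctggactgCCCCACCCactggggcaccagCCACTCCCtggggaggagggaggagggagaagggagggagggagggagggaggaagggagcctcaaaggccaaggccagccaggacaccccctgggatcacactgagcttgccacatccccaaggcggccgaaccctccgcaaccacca
KLF1, chr19:12887152-12887451, minus strand: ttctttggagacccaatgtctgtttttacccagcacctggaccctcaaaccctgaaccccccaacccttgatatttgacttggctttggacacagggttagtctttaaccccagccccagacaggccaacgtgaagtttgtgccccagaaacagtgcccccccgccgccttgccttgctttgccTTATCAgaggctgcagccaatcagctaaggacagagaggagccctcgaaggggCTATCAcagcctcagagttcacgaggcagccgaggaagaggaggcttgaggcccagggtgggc
LYL1, chr19:13102809-13103108, minus strand: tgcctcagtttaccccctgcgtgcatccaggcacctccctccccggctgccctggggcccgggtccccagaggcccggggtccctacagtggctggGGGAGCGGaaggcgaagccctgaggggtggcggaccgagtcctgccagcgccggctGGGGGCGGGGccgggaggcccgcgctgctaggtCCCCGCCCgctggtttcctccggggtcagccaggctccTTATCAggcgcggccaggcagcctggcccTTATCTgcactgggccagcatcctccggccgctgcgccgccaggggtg
TAL1, chr1:47232286-47232585, minus strand, the entry further upstream of 2: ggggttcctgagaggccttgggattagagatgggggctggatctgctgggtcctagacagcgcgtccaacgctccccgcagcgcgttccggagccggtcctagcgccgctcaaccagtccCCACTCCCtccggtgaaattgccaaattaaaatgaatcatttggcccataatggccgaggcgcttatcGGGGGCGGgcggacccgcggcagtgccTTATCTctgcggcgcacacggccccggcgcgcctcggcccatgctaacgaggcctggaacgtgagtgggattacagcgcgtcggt
ZFPM1, chr16:88453030-88453329, plus strand: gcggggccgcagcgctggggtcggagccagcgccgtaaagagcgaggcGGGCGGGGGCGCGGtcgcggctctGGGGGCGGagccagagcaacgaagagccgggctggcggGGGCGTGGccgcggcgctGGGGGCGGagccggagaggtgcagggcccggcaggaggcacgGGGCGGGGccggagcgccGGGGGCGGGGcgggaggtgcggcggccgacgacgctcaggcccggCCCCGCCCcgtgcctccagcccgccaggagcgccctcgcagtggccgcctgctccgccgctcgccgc

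GATA motifs stood in the entries of KLF1, LYL1, GFI1B (both) and the TAL1 entry shown, and KLF type motifs in those of GATA1, LYL1, TAL1, ZFPM1 and 1 GFI1B entry. Counting bases from the start, with negative numbers before it, the first base of the GATA matches was at -66 and -13 in KLF1, at -27 and 2 in LYL1 and at -35 in TAL1. The GATA1 entry held 4 KLF type matches and 0 GATA matches, and the KLF1 entry held 2 GATA matches and 0 KLF type matches. ZFPM1 held 9 KLF type matches, with a GC content of 83%, above 99.2% of all entries. GC content was 67.7% in GATA1, 57.0% in KLF1, 74.7% in LYL1, 64.3% and 54.3% in the TAL1 entries and 47.3% and 42.3% in the GFI1B entries, against a median of 58.7% over 35116 entries.

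Among all 35116 entries of this length, 25.0% held a GATA match, 56.2% a KLF type match, 68.7% an E-box (CANNTG) and 7.71% an NFE2 type motif (TGANTCA). Of the 8 member entries, 5 held a GATA match, 5 a KLF type match, 4 an E-box and 1 an NFE2 type motif. The last was in the TAL1 entry shown, at -98, where it overlaps the E-box at -93. A match is a description of letters and not a measured binding site.

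H3K27ac marked the promoters of most of the 8 genes in most lists. Of the 200 combinations of a gene and an H3K27ac list, 156 had a promoter peak. As background, the genome was divided into 4 kb windows, the length of the promoter window, and 1.27% of window and list combinations held a peak. These windows cover the whole of each chromosome and are not promoters. LYL1 had a promoter peak in 25 of 25 lists, GATA1 and NFE2 in 24, TAL1 and KLF1 in 23, LMO2 in 18, ZFPM1 in 13 and GFI1B in 6.

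TAL1, LYL1, KLF1, NFE2 and GATA1 thus had a promoter peak in at least 20 of 25 lists, against 0.303% of 4 kb windows. The 47630 windows with any H3K27ac peak had a median of 2 lists. Without the 5 Active Motif lists, 127 of 160 combinations had a peak, without the 8 lists at 13 cycles 113 of 136, and without the 4 TSA lists 126 of 168. Requiring peaks to cover at least 50% of the promoter window left 83 of 200. Under that rule none of these 5 reached 20 lists, with 18 each for TAL1 and LYL1, 15 for KLF1, 13 for GATA1 and 12 for NFE2, and LMO2 had 4.

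The strength of a promoter peak was read as its rank within its own list, by total signal, where 100 is the strongest peak. The median over the 156 combinations was 85.7. Total signal grows with peak width, and ranked by total signal per base the median was 62.4.

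**Figure D1:**
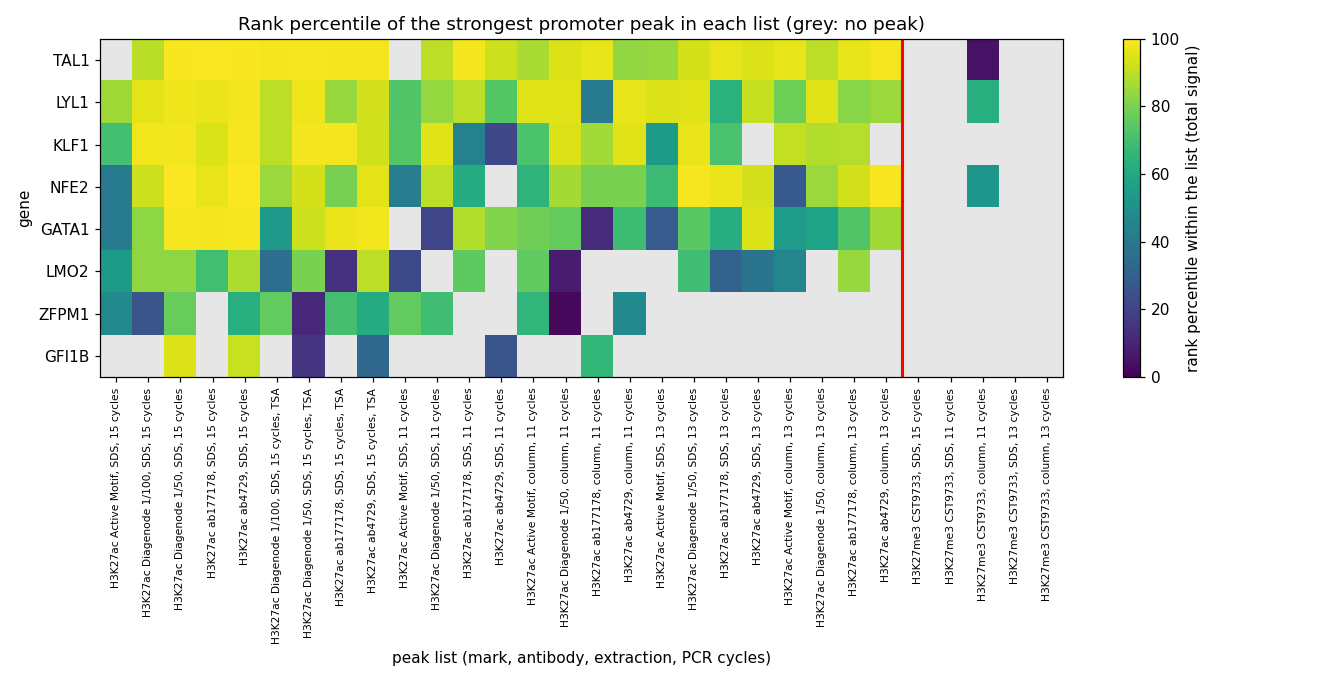
Rank percentile of the strongest promoter peak (colour, 0 to 100) for the 8 genes (rows) in the 30 SEACR lists (columns), with grey for no promoter peak and a red line between the 25 H3K27ac and the 5 H3K27me3 lists. TAL1, LYL1, KLF1, NFE2 and GATA1 are coloured in 23 to 25 H3K27ac columns, GFI1B in 6, and only 3 cells are coloured for H3K27me3, all in 1 column.

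TAL1, the partner of GATA1 at E-boxes, had the highest median rank. In 23 lists its promoter peak ranked from 83.9 to 99.3, with a median of 96.2. Both lists without a TAL1 peak were Active Motif libraries with SDS, at 11 and 15 cycles. Ranked per base the TAL1 median was 87.7, still the highest of the 8 medians.

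LYL1, the relative of TAL1, ranked from 41.1 to 98.2, with a median of 91.0. KLF1, the CACCC-binding activator, ranked from 21.2 to 98.8, with a median of 90.8, and had no promoter peak in either ab4729 list at 13 cycles. NFE2, the globin enhancer factor, ranked from 27.8 to 99.6, with a median of 88.1. GATA1 itself ranked from 12.7 to 98.8, with a median of 77.4.

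LMO2, the bridging protein, ranked from 7.48 to 89.9 in 18 lists, with a median of 69.6. ZFPM1, the cofactor of GATA1, ranked from 2.55 to 76.7 in 13 lists, with a median of 63.0. GFI1B, the repressor, ranked from 14.9 to 94.9 in 6 lists, with a median of 49.9. The order of the medians was TAL1, LYL1, KLF1, NFE2, GATA1, LMO2, ZFPM1 and GFI1B, and each neighbouring pair differed by less than the larger of its SDs over lists, which ran from 4.77 for TAL1 to 34.4 for GFI1B. Ranked per base, NFE2 (71.6) stood second, ahead of LYL1 (64.4), and KLF1 (58.3) stood behind GATA1 (60.8). Ranked by maximum signal, the median was 75.7 for LYL1 and 65.7 for KLF1. The high ranks of LYL1 and KLF1 by total signal thus depended on the measure. A rank places a peak within 1 list, so no test was made between lists.

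The sets of lists that held each promoter peak were compared by the Jaccard index, the number of lists shared over the number in either set. GATA1 was most like LYL1, with an index of 0.96 from 24 shared lists of 25. NFE2 was also most like LYL1 (0.96), TAL1 most like GATA1 (0.958), and KLF1 most like LYL1 (0.92). The weaker members were less like any other, with 0.75 for LMO2 and NFE2, 0.565 for ZFPM1 and KLF1, and 0.267 for GFI1B and ZFPM1. Genes present in nearly every list must share most of them, so these indices mainly restate the counts.

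The place of the peaks differed from gene to gene. Distances are along the gene, negative before the start. Of the 386 H3K27ac peaks within 10 kb, 214 were promoter peaks and 172 flank peaks. NFE2 held the most, with 97 peaks, of which 68 were in the flanks, and GFI1B the fewest, with 24. The flank intervals below were chosen after the peaks were seen and carry no test.

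**Figure D2:**
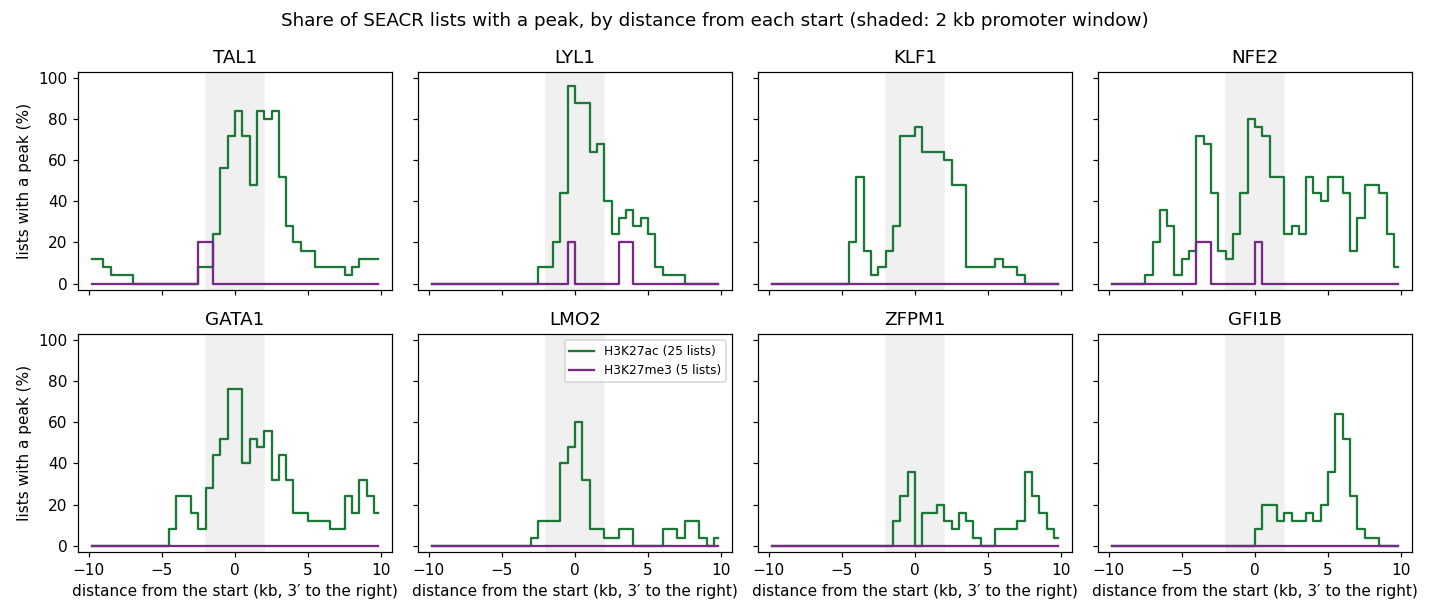
Percent of lists with a SEACR peak over the midpoint of each 500 bp step from -10 to 10 kb of the 8 starts, for H3K27ac (green, 25 lists) and H3K27me3 (purple, 5 lists), with the 2 kb promoter window shaded. TAL1 shows a pair of summits, one at the start and one near 2 kb downstream, NFE2 shows summits on both sides, and the GFI1B summit lies beyond 5 kb downstream.

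TAL1 had 2 stretches of H3K27ac (hg19 promoter window chr1:47695387-47699387). The start itself lay under a peak in 21 of 25 lists, and 22 lists had a peak between 2000 and 4000 bp downstream. In 13 of 23 lists the promoter window was touched by 2 or more separate peaks. The maximum of the strongest promoter peak lay more than 1 kb downstream of the start in 17 of 23 lists and within 1 kb of it in 6, with a median place of 2186 bp. The highest H3K27ac signal of the TAL1 peak was thus downstream of this start in most lists. RefSeq on GRCh38.p14 lists 2 start entries for TAL1, and which of them matches the hg19 start was not determined. The entries lie at chr1:47231666-47231965 and chr1:47232286-47232585, less than 1 kb apart. Whether either start bears on the place of the maximum was not tested.

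LYL1 (chr19:13211975-13215975) and KLF1 (chr19:12995995-12999995) were marked at the start, in 23 and 21 of 25 lists. For LYL1, 13 lists had a peak from 4000 to 5500 bp downstream, apart from the promoter peak in 9 of them. For KLF1, 13 lists had a peak from -4500 to -3000 bp, apart from the promoter peak in 12, at a median rank of 38.1. In RefSeq gene order the next protein-coding gene upstream of KLF1 is GCDH and the next downstream is DNASE2, and their distances were not used. The KLF1 promoter peak itself had a median rank of 90.8.

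NFE2 (chr12:54692799-54696799) had peaks on both sides. Of 25 lists, 21 had a peak from -4000 to -2500 bp, 9 from -7000 to -5500 bp, 20 from 4500 to 6500 bp and 17 from 7000 to 9000 bp. These peaks stood apart from the promoter peak in 18, 8, 18 and 15 lists. There their median ranks were 60.4, 45.8, 55.9 and 61.8. The promoter peak had a median of 88.1 over the 24 lists that held it. Those include lists where a wide promoter peak took in flank intervals, so the medians come from unlike sets of lists. The neighbours of NFE2 in RefSeq gene order are COPZ1 upstream and HNRNPA1 downstream, so part of this stretch may lie at other genes, which was not tested.

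GATA1 (chrX:48642982-48646982) was marked at the start in 19 of 25 lists. A peak from -4500 to -2500 bp was held by 6 lists, of which 5 were at 15 cycles, and a peak from 7000 to 9500 bp by 12. The downstream peak stood apart from the promoter peak in 11 lists, at ranks from 2.24 to 89.6 and a low median of 15.4. For the upstream peak this held in 4 lists, at a median rank of 42.1. The upstream stretch was thus found in 5 of 9 lists at 15 cycles and 1 of 16 downsampled lists. GATA1 lies before HDAC6 in RefSeq gene order.

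GFI1B (chr9:135852098-135856098) was marked away from its start. Only 2 of 25 lists had a peak over the start and 6 a peak in the promoter window, but 16 had a peak from 5000 to 6500 bp downstream. In 14 of these 16 lists the downstream peak was separate from any promoter peak, with ranks from 15.0 to 92.3 and a median of 65.9. It was present in 9 of 16 downsampled lists and 7 of 9 at 15 cycles. In 10 lists GFI1B had a flank peak and no promoter peak. RefSeq on GRCh38.p14 lists 2 start entries for GFI1B, and which of them matches the hg19 start was not determined. They lie at chr9:132945281-132945580 and chr9:132978444-132978743, more than 10 kb apart, which is further than the downstream peak lies from the start.

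ZFPM1 (chr16:88517725-88521725) had a peak over the start in 7 of 25 lists. A downstream stretch from 7000 to 9000 bp had a peak in 8 of 9 lists at 15 cycles and 1 of 16 downsampled lists. LMO2 (chr11:33911836-33915836) was marked at the start in 16 lists and had few flank peaks, with 6 in all. A peak from 6000 to 9000 bp was found in 4 lists.

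H3K27me3 peaks were few at the 8 genes. Of 40 combinations of a gene and an H3K27me3 list, 3 had a promoter peak, against 8.28% of window and list combinations genome-wide, so the members' share was near the background. All 3 were in the column list at 11 cycles, where they made 3 of 8 genes against a background of 7.6%. The other 4 lists had 0 of 32, against 8.46%.

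In that list the peak at LYL1 spanned -653 to 173 bp at rank 63.0, the peak at NFE2 -209 to 586 bp at rank 52.7, and the peak at TAL1 -2347 to -1722 bp at rank 4.86. It also had flank peaks at NFE2 (-3964 to -3250 bp) and LYL1 (3009 to 3751 bp). Maximum signals at these 5 peaks were 2 to 4. H3K27ac lists with a peak over the same bases numbered 24 at the LYL1 start, 24 at the NFE2 start, 20 at the NFE2 upstream peak, 9 at the LYL1 flank peak and 2 at the TAL1 peak.

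That list stood apart elsewhere too. Of the 2302 windows with a peak in at least 20 H3K27ac lists, 38.6% held a peak in the column list at 11 cycles, against 7.12% to 14.0% in the other 4 H3K27me3 lists. Its part in the 3 promoter peaks was not tested. In the MACS2 list of the H3K27me3 library at 15 cycles, ZFPM1 had a promoter peak from -608 to -350 bp, at rank 25.0, and the other 7 genes had none. H3K27ac lists with a peak over the same bases numbered 9. The MACS2 list held 89406 peaks over 155.5 Mb. Its share of 4 kb windows was not computed, so the count has no background beside it.

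At 15 cycles without TSA, 35 of the 40 combinations of a gene and an H3K27ac library had a promoter peak, against 2.03% of window and list combinations. ab4729 and Diagenode at 1/50 held all 8 genes. Diagenode at 1/100 lacked GFI1B, ab177178 lacked GFI1B and ZFPM1, and Active Motif lacked GFI1B and TAL1. Without the Active Motif library, 29 of 32 combinations had a peak.

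GATA1 ranked 98.8 with ab4729, 98.5 with Diagenode 1/50, 98.2 with ab177178, 83.1 with Diagenode 1/100 and 41.1 with Active Motif. TAL1 ranked 99.2, 98.9, 99.3 and 89.5 in the first 4 of these and had no peak with Active Motif. NFE2 ranked 99.6, 99.5, 96.7, 92.5 and 41.4 in the same order. Both GATA1 and NFE2 were thus among the strongest peaks with 3 libraries and in the lower part of the Active Motif list.

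LYL1 ranked 98.2, 97.5, 97.2, 95.8 and 85.6 in that order. KLF1 ranked 98.8, 98.3, 94.5, 97.9 and 70.1. LMO2 ranked 87.6, 83.4, 69.9, 83.3 and 54.3. In all 6 of these genes the Active Motif library gave the lowest rank by total signal or no peak. The GATA1 peak there was 641 bp wide, and per base it ranked 67.2, above the 61.0 with Diagenode 1/100.

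ZFPM1 ranked 63.0 with ab4729, 76.7 with Diagenode 1/50, 26.4 with Diagenode 1/100 and 48.0 with Active Motif. GFI1B ranked 91.5 with ab4729 and 94.9 with Diagenode 1/50, where the promoter peaks were 8727 and 7260 bp wide. Per base the same 2 peaks ranked 32.6 and 62.8. Both took in the downstream stretch, and the maximum lay 5764 bp from the start with ab4729 and 1654 bp with Diagenode 1/50.

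Peak width differed widely between libraries. The median width of the promoter peaks over the genes present was 10685 bp with ab4729, 7233 bp with Diagenode 1/50, 4038 bp with ab177178, 2131 bp with Diagenode 1/100 and 1427 bp with Active Motif. The widest was NFE2 with ab4729, at 20174 bp. Over all peaks of the same lists, the median widths were 2737, 2256, 1393, 1340 and 917 bp, in the same order. Each library was 1 sample, so the antibody, the dilution and the library cannot be told apart.

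The MACS2 lists of these 5 libraries gave 32 of 40, against 1.7% of window and list combinations. GATA1, LYL1 and KLF1 had a promoter peak in 5 of 5 MACS2 lists, TAL1, NFE2 and ZFPM1 in 4, LMO2 in 3 and GFI1B in 2. LMO2 thus had a peak in 3 of 5 libraries by MACS2 and 5 of 5 by SEACR. The NFE2 peak with ab4729 was 8770 bp wide by MACS2 and 20174 bp by SEACR.

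With TSA, the promoter peaks of the 8 genes were found again, and most were narrower, as peaks were genome-wide. In the 4 matched pairs at 15 cycles, 29 of 32 combinations had a promoter peak without TSA and 30 of 32 with it. All 29 were found again, and the added peak was ZFPM1 with ab177178. Genome-wide, 60.1% of 4 kb windows with an untreated peak had none with TSA, and 0.533% of windows without an untreated peak had one with TSA. Members' peaks were strong, so a background nearer in rank is the windows with an untreated peak of rank 90 or more. Of these 32.4% had none with TSA, against 0 of 20 among the members with such a rank. The 60.1% and 32.4% are not like backgrounds. A wide untreated peak counts in several windows, and those at its edges can lie outside a narrower TSA peak. Member windows are centred on starts, and the 20 repeat the same genes over 4 libraries. Whether members kept their peaks more often than other promoters was not tested.

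GFI1B was the exception with other settings. With both lists of a pair limited to the size of the smaller, 1 of 28 promoter peaks was not found with TSA, GFI1B with ab4729. With 5 kb on either side of the start, 2 of 32 were not found with TSA, GFI1B with ab177178 and with Diagenode 1/100.

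The promoter peak was narrower with TSA in 26 of 29 pairs, with a median width of 5672 bp untreated and 2094 bp with TSA. Genome-wide, the strongest peak was narrower with TSA in 92.6% of 4 kb windows with a peak in both lists, so the members' share was near the background. NFE2 measured 20174 bp untreated and 3176 bp with TSA for ab4729, 14733 and 3023 bp for Diagenode 1/50, 3237 and 899 bp for ab177178, and 2987 and 1355 bp for Diagenode 1/100. GATA1 measured 14267 and 4571 bp, 10184 and 2146 bp, 4729 and 3276 bp, and 2122 and 1376 bp for the same libraries. LYL1 measured 9874 and 2711 bp, 8435 and 3063 bp, 5672 and 1272 bp, and 3696 and 1444 bp. For these 3 genes the TSA peak was the narrower in 4 of 4 pairs.

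TAL1 measured 13245 and 3870 bp for ab4729, 7153 and 3664 bp for Diagenode 1/50, 7353 and 3162 bp for ab177178, but 2074 and 3614 bp for Diagenode 1/100. KLF1 measured 11495 and 2527 bp, 7205 and 4313 bp, 3346 and 3607 bp, and 5360 and 1753 bp in that order of libraries. ZFPM1 with Diagenode 1/100 measured 1038 and 1806 bp. These 3 were the only pairs in which the TSA peak was wider. LMO2 was narrower in 4 of 4 pairs, for example 7141 and 2094 bp with ab4729.

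**Figure D3:**
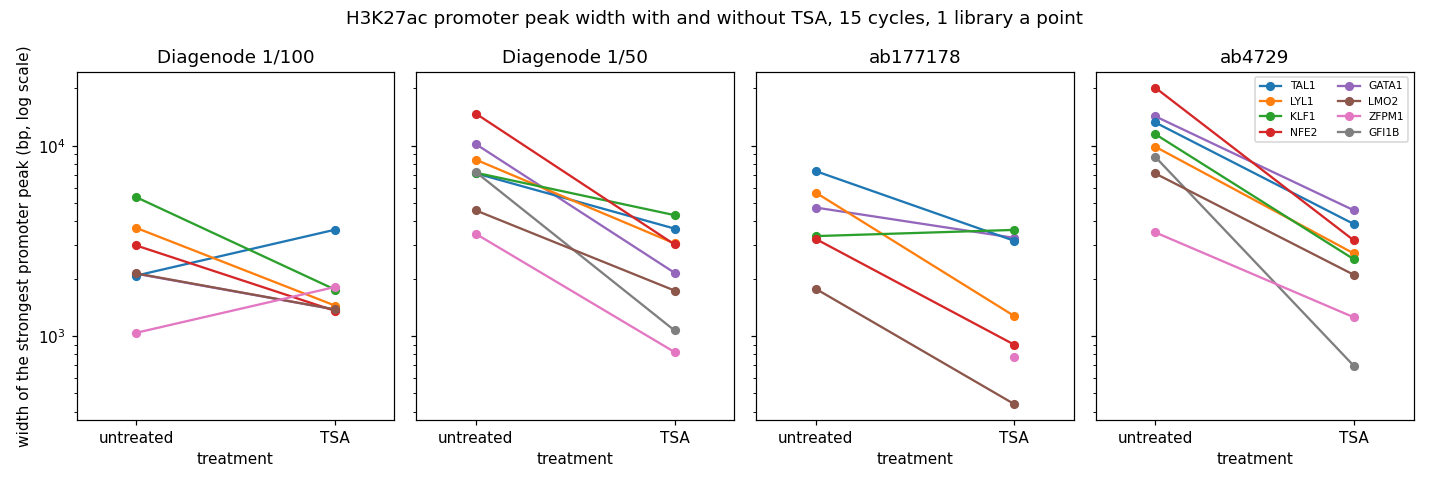
Width of the strongest H3K27ac promoter peak (bp, log scale) without and with TSA at 15 cycles, with 1 panel for each antibody and dilution and 1 line for each gene (the GATA1 and LMO2 lines nearly coincide in the Diagenode 1/100 panel). Lines slope down in 26 of 29 pairs, and the exceptions are TAL1 and ZFPM1 with Diagenode 1/100 and KLF1 with ab177178.

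The lists themselves also differed with TSA. The median width of all peaks was 2737 bp untreated and 922 bp with TSA for ab4729, 2256 and 1075 bp for Diagenode 1/50, 1393 and 753 bp for ab177178, and 1340 and 1145 bp for Diagenode 1/100. The length covered by all peaks was 43.3 Mb untreated and 25.3 Mb with TSA for ab4729, 31.9 and 8.12 Mb for Diagenode 1/50, 27.5 and 6.33 Mb for ab177178, and 11.99 and 5.79 Mb for Diagenode 1/100. The part of these list-wide differences in the members' widths was not tested. 4 pairs cannot reach 0.05 in an exact test, so none was made.

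Within the TSA lists, GATA1 ranked 97.9 by total signal with ab4729, 97.0 with ab177178, 92.5 with Diagenode 1/50 and 53.9 with Diagenode 1/100. By total signal per base the same peaks ranked 68.1, 42.0, 85.9 and 22.5. TAL1 ranked 98.2, 98.3, 98.4 and 98.2 by total signal and 85.5, 87.7, 95.6 and 87.6 per base. TAL1 was thus high in all 4 TSA lists by either measure, and GATA1 was not. The lists of a pair differ in length, so ranks are not compared between them.

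In the downsampled lists, counts of marked promoters were close between extractions. SDS lists had 44 of 64 combinations, against 0.997% of window and list combinations, and column lists 47 of 64, against 0.978%. Lists at 11 cycles had 48 of 64, against 1.05%, and at 13 cycles 43 of 64, against 0.927%. By antibody, of 32 combinations each, ab177178 had 24 (background 1.38%), ab4729 20 (0.976%), Active Motif 23 (0.788%) and Diagenode 1/50 24 (0.809%).

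By cycle number, ZFPM1 had a promoter peak in 5 of 8 lists at 11 cycles and 0 of 8 at 13. GFI1B had one in 2 of 8 and 0 of 8, and KLF1 in 8 of 8 and 6 of 8. ab177178 had no ZFPM1 promoter peak in any of its 5 untreated lists, though it had one with TSA. LYL1 was found in all 16 downsampled lists. The lists at 11 cycles held 3957 to 10768 peaks and those at 13 cycles 3761 to 8210.

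The length covered by H3K27ac peaks in the 20 kb around each start was compared between extractions and between cycle numbers in 8 pairs of downsampled lists matched on the other factors. At ZFPM1 the 8 lists at 11 cycles covered 1142, 1177, 0 and 0 bp with SDS and 2374, 471, 0 and 1683 bp with a column, for Active Motif, Diagenode, ab177178 and ab4729 in turn. All 8 lists at 13 cycles covered 0 bp. The mean difference, 13 minus 11 cycles, was -856 ± 888 bp (SD, 8 pairs), lower in 5 pairs and higher in 0. An exact two-sided sign-flip permutation test gave p = 0.0625, and 1 after Benjamini-Hochberg adjustment over 16588 windows. Flipping a difference of 0 changes nothing, and 3 of the 8 differences were 0. The smallest p this gene could reach in this test was thus 0.0625, so it could not fall under 0.05. The ranges overlap, since 3 lists at 11 cycles were also at 0.

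NFE2 covered 1730 to 6309 bp at 11 cycles (median 3954) and 2114 to 9766 bp at 13 (median 5245). Its mean difference, 13 minus 11 cycles, was 1797 ± 3163 bp (SD, 8 pairs), higher in 6 pairs and lower in 2 (exact permutation p = 0.164, adjusted p = 1). The highest values at 13 cycles, 9766, 9162 and 9145 bp, lay above every list at 11 cycles, and the rest overlapped.

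GATA1 covered 0 to 4295 bp at 11 cycles (median 2888) and 820 to 5640 bp at 13 (median 3294). It was higher at 13 cycles in 6 of 8 pairs, by a mean of 660 ± 1819 bp (SD; exact permutation p = 0.328, adjusted p = 1). The groups overlapped, and the list at 0 was Active Motif with SDS.

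KLF1 covered 2056 to 4153 bp at 11 cycles (median 2941) and 904 to 4040 bp at 13 (median 2362). It was lower at 13 cycles in 6 of 8 pairs, with a mean difference of -637 ± 1400 bp (SD; exact permutation p = 0.25, adjusted p = 1). GFI1B covered 0 to 3049 bp at 11 cycles (median 1517) and 0 to 2374 bp at 13 (median 382), lower in 5 pairs and higher in 2 (exact permutation p = 0.25, adjusted p = 1). For both genes the lists overlapped between cycle numbers.

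TAL1, LYL1 and LMO2 had mean differences of -354, 442 and -309 bp, with SDs of 1209, 2323 and 1361 bp, and were higher in 4, 5 and 3 of 8 pairs. Their exact permutation p-values were 0.414, 0.633 and 0.609, and all adjusted p-values were 1. The 3 mean differences were smaller than the spread between pairs.

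**Figure D4:**
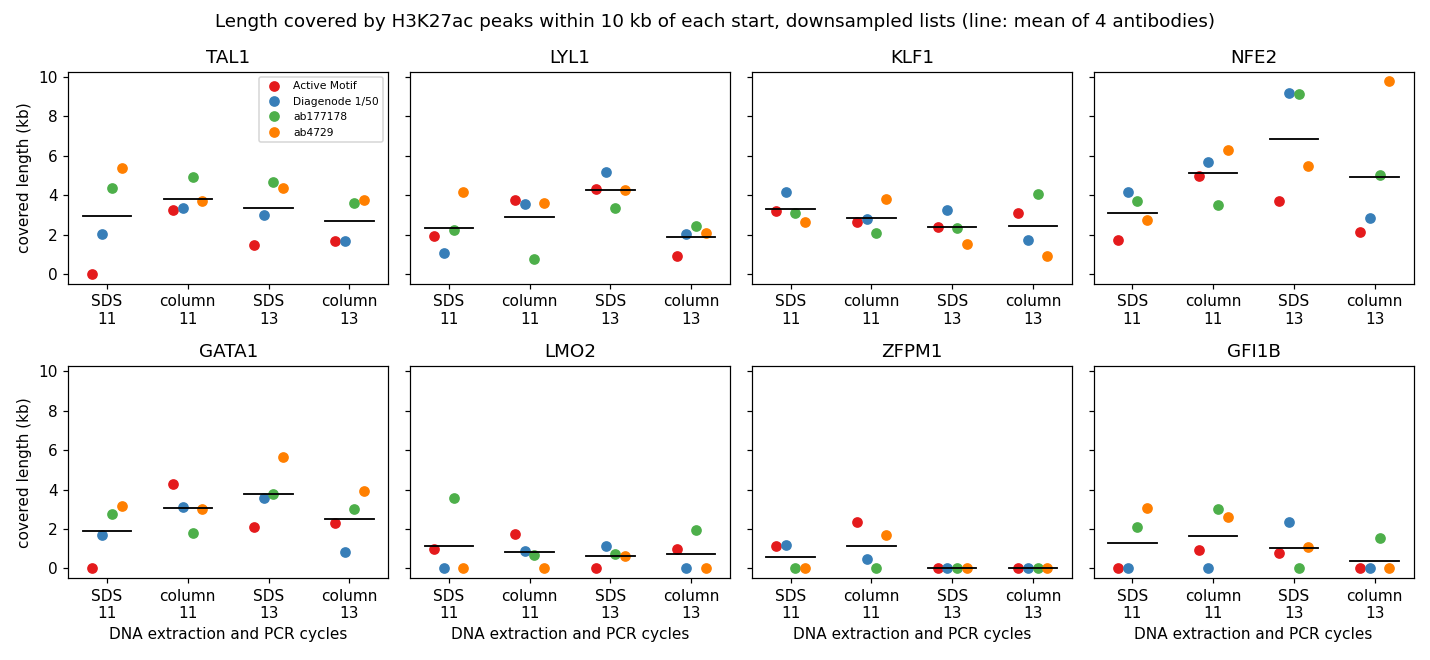
Length covered by H3K27ac peaks within 10 kb of each start (kb) in the 16 downsampled lists, by DNA extraction and PCR cycles, with 1 point per antibody and a line at the mean of 4. ZFPM1 is at 0 in all 8 lists at 13 cycles. At LYL1 and 13 cycles the 4 SDS points (3332 to 5184 bp) lie above the 4 column points (917 to 2446 bp). For the other genes the points overlap between arms.

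LYL1 covered 1046 to 5184 bp with SDS (median 3749) and 747 to 3728 bp with a column (median 2265). For column minus SDS it had the largest mean difference of the 8 genes, -921 ± 2148 bp (SD, 8 pairs), lower in 6 pairs and higher in 2 (exact permutation p = 0.266, adjusted p = 1). The column lists covered a mean of 2390 bp at LYL1 and the SDS lists 3311 bp. At 13 cycles alone, SDS lists covered 3332 to 5184 bp at LYL1 and column lists 917 to 2446 bp, without overlap. The 4 pairs at 11 cycles had a mean of 561 bp at LYL1, positive in 2, and the 4 at 13 cycles a mean of -2404 bp, positive in 0. The means also had opposite signs at 11 and 13 cycles for GATA1 (1155 and -1271 bp), NFE2 (2017 and -1927 bp), TAL1 (847 and -695 bp), GFI1B (352.5 and -663 bp), KLF1 (-456 and 78.5 bp) and LMO2 (-298 and 109 bp). For the difference between cycle numbers, exact sign-flip permutation p-values ran from 0.25 to 0.875 over the 8 genes, and 4 pairs cannot reach 0.05.

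The other 7 genes had mean differences from -189 bp at KLF1 to 276 bp at ZFPM1, with exact permutation p-values from 0.5 to 0.984. Their spread between pairs, from 778 to 3841 bp, was larger than each of these means.

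No window was called at an adjusted p under 0.05 by this test in either comparison, that is 0 of 16588 windows (0.0%) for column minus SDS and 0 of 16588 (0.0%) for 13 minus 11 cycles. At an unadjusted p under 0.05 there were 115 and 267 windows, and none of the 8 genes was among them. ZFPM1 could not be among them in either comparison, since too few of its differences were other than 0. The smallest p that 8 pairs allow, with no difference at 0, is 0.00781. At that p 2592 windows would be needed for any to be called after adjustment. The pairs are conditions, not biological replicates, so the p-values measure only the spread between these libraries.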

How the data were processed

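The members and lists, the flank intervals and the tests were chosen with earlier results of these data known. K562 cells were profiled by CUT&Tag in 30 libraries, of which 25 were for H3K27ac, with 1 library per condition. Per the submitters' processing notes the genome build was hg19 and the tools included SEACR, MACS2, Bowtie2 2.2.9, SAMtools 1.3.1 and Picard 2.6.0, along with Trim Galore 0.6.6, bedtools 2.25.0 and bcl2fastq, in no stated order or role. Per the labels duplicates were removed, and the libraries at 11 and 13 cycles were downsampled to the same depth. The authors called peaks in each library. Total and maximum signal of each peak stand in the deposited SEACR lists, from the authors' caller. In the deposited MACS2 lists there is a −log10 q-value per peak, which served as its rank. Neither the depth per library nor the caller settings were found in those sources, and the precision of a list is therefore unknown.

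Restricting peaks to chromosomes 1 to 22 and X left out 0.449% to 5.82% of a SEACR list. Overlap of at least 1 bp counted, the promoter window was 2 kb on either side of a start, and ranks are percentiles of total signal within a list. Where several peaks touched the window, the strongest was used. All 8 members are named by rule. For covered length, the mean difference over 8 pairs was tested by exact permutation of signs (two-sided), for the 8 gene windows and all 20 kb windows with an H3K27ac peak in the 16 lists, with Benjamini-Hochberg adjustment over all of them. The test was tested on simulated data, where 200 planted changes, all large and in the same direction, were found at the unadjusted threshold. None was called after adjustment, for which 200 windows were too few, since 2592 were needed. The simulation does not show how the test handles differences as variable as those measured. Alternatives were other windows, 50% coverage, equal list sizes, joining of peaks under 1 kb apart, MACS2 lists, other ranks and leaving out an antibody or group of lists. The lists of partner genes and of other blood cell markers were not run, since no hg19 annotation was used. Calculations used Python 3.11.15, numpy 2.4.6 and pandas 2.3.3.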

Additional observations from a re-analysis of the deposited data

How the results depend on the processing

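Alternatives kept the H3K27ac promoter count of 156 within 1.5 times, except that it was 83 where peaks had to cover at least 50% of the window, with 18 for TAL1 and LYL1, 15 for KLF1, 13 for GATA1, 12 for NFE2, 4 for LMO2, 2 for ZFPM1 and 1 for GFI1B. The H3K27me3 count of 3 became 0 at 50% coverage and 0 without the column list at 11 cycles, where 4 lists remained. The count of peaks not found with TSA, 0, became 1 with equal list sizes in a pair and 2 with 5 kb on either side, all at GFI1B. For GFI1B, promoter peaks numbered 11 with 5 kb on either side and 2 with equal list sizes, against 6, and for ZFPM1 7 with equal list sizes against 13. The cause was not tested. Median promoter ranks of TAL1, LYL1 and KLF1 moved by more than their SD over lists with other measures. By maximum signal they were 89.6, 75.7 and 65.7, and per base 87.7, 64.4 and 58.3, against 96.2, 91.0 and 90.8 by total signal.

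In the covered length comparisons a call after adjustment was nearly out of reach, so the 0 calls under each alternative say nothing about stability. There were 37 to 145 windows at an unadjusted p under 0.05 for column minus SDS and 79 to 291 for 13 minus 11 cycles. The 13 minus 11 cycles differences kept their sign for all 8 genes. For column minus SDS, 17 mean differences changed sign, none of them called by the exact permutation test, with adjusted p = 1 in all. With 5 kb on either side TAL1 was at -18.8 bp and LMO2 at 20.5 bp. With equal list sizes GATA1 was at 39.4 bp, TAL1 -73.8, KLF1 274, NFE2 -159 and GFI1B 186. Without Active Motif TAL1 was at -471 bp and NFE2 -220. Without Diagenode GATA1 was at 149 bp, KLF1 228 and GFI1B 189. Without ab177178 GATA1 was at 205 bp and LMO2 151, and without ab4729 GATA1 234, NFE2 -1250 and GFI1B 44.3. The pairs tested here match conditions, since each group has 1 library. The depth is unknown, so the absence of a weak peak (ZFPM1 or GFI1B) from a list does not show that the mark is absent.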
